A study of Mus musculus with 4 samples.

Results

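The transcription factors that set and keep the lineages of the lung epithelium were examined in whole mouse lung, as 10 genes measured by 24 probe sets of an Affymetrix expression array. The genes were Sox2, Foxj1, Sox9, Id2, Hmga2, Nkx2-1, Foxa1, Foxa2, Foxp2 and Klf5, and the members were every probe set that the platform annotation gives to exactly 1 of them. All 10 genes had at least 1 such probe set, among 18193 genes and 34945 probe sets with a single gene symbol. The study compared 2 lung samples labelled IKKa floxed, with a loxP-flanked allele of IKKα, a kinase upstream of the NF-κB transcription factors, with 2 wild type lung samples. All 4 samples were of the B6/J strain, all came from mice given Cre recombinase intratracheally by adenovirus, and all were collected 4 months after that. The age and sex of the mice, the number of floxed alleles, the promoter that drove Cre and whether every array holds its own animal are not stated by the labels, so p-values measure a spread between samples that may be technical. The transcript of IKKα itself is not analysed here, which leaves recombination of the floxed allele unchecked. The whole lung was measured, and in such bulk samples fewer cells of a type and less RNA per cell cannot be told apart.

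In the developing lung, Nkx2-1 marks the whole epithelium, while Sox2 comes to mark the proximal tree that forms the airways and Sox9 and Id2 mark the distal tips that give rise to the alveoli. In the adult, Sox2 is kept in airway epithelium, Foxj1 is the master factor of motile cilia, and Nkx2-1, the forkhead factors Foxa1, Foxa2 and Foxp2 and the zinc-finger factor Klf5 act in both airways and alveoli. Hmga2, a chromatin protein of fetal tissue, is low in most adult organs. The members were therefore read in 3 classes: airway (Sox2 and Foxj1), distal and alveolar (Sox9, Id2 and Hmga2), and factors of both compartments (the other five).

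The promoter windows of Sox2 and Foxa1 are shown because these 2 genes had the lowest unadjusted p-values among members with a listed window. RefSeq (build GRCm38.p6) listed windows for 6 of the 10 members, from 250 bases before to 50 bases after a start site. The Sox2 window lies on the plus strand at chr3:34649745-34650044, and the Foxa1 window on the minus strand at chr12:57546062-57546361. Capitals mark a match to the forkhead motif TGTTTAC, the SOX motif ATTGTT or the NKX2-1 motif CTCAAG on either strand.
Sox2 promoter: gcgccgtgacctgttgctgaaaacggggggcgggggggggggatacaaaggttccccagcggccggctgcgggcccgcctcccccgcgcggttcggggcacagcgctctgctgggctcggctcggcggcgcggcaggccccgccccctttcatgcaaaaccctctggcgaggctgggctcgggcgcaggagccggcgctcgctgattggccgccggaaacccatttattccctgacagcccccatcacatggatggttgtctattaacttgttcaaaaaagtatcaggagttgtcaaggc
Foxa1 promoter: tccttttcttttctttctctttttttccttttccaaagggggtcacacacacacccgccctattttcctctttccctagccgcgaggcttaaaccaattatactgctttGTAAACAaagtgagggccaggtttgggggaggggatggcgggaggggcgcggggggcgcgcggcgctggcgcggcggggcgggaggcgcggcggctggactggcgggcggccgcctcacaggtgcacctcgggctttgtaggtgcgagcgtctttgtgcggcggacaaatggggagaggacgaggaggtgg
The Foxa1 window holds 1 forkhead match, on the opposite strand, which begins at position -141 from the start site. Of all 32851 windows of this length, 3.65% hold that motif, 10.7% the SOX motif and 15.9% the NKX2-1 motif. The Sox2 window holds none of the 3 motifs. Its G and C content was 66.3%, and that of the Foxa1 window 62.3%, against a median of 52.7% over all windows. These matches describe letters in the window and were not tested as sites.

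Values are deposited linear intensities, which the authors had scaled to a common trimmed mean on every array, and fold changes are differences of mean log2(intensity + 16), IKKa floxed minus wild type. Array medians lay at 32.0 and 32.1 in floxed lungs and 33.7 and 34.2 in wild type lungs. A gene with several probe sets was represented by the brightest on average, and genes with a mean level below the 30th percentile (intensity 20.4) were not tested. Lung markers were bright on every array: Sftpc, the alveolar surfactant protein C, had 13619 and 10831 in floxed lungs and 9204 and 8743 in wild type lungs, and Scgb1a1, the club cell secretoglobin, had 19539 and 16203 in floxed lungs and 14552 and 14417 in wild type lungs. The groups also differed in sex-linked and other features. Xist, expressed from the inactive X chromosome of females, had 4246 and 4629 in floxed lungs and 31.8 and 22.9 in wild type lungs. The Y-linked gene Eif2s3y had 3.77 and 6.14 in floxed lungs and 519 and 530 in wild type lungs, and the Y-linked Uty and Kdm5d were also lower in floxed lungs. By these genes the floxed samples were female and the wild type samples male. The Gapdh signal at the 3′ end over that at the 5′ end grows as RNA degrades. It was 1.44 and 1.68 in floxed lungs and 1.18 and 1.10 in wild type lungs. The same ratio for actin was 2.67 and 2.77 in floxed lungs and 2.65 and 2.46 in wild type lungs, so the first arrays were nearly level. Cardiac muscle markers summed to 645 to 796 in floxed lungs and 5001 to 7268 in wild type lungs, with 8 of 11 tested called lower (0.73% of all genes tested were), led by the atrial myosin light chain Myl7 and by Sln (log2 fold changes of -4.92 and -4.36). Of those called, Sln, Ryr2 and Myh6 had floxed means of 12.4, 16.4 and 20.3, under the filter of 20.4. They passed it through their wild type arrays. Adipocyte genes summed to 3198 to 3256 in floxed lungs and 3250 to 3576 in wild type lungs. Of 8 tested, 2 lay above 0, the bright Lpl (log2 fold change 0.48, higher without overlap) and Pparg (0.19). Another 4 fell (0.73% of all genes tested did), led by Car3, with 12.9 and 39.1 in floxed lungs and 805 and 586 in wild type lungs (-4.14). Their count was 1 with no filter on low values. Among the 4, Adipoq and Retn had floxed means of 16.6 and 15.3, under the filter, and passed it through their wild type arrays. Of 17 macrophage and dendritic cell genes 4 rose (0.997% of all genes tested rose), led by the scavenger receptor Marco, with 275 and 267 in floxed lungs and 60.2 and 73.1 in wild type lungs (log2 fold change 1.80), and 16 lay above 0. Their summed intensity was 18583 to 20338 in floxed lungs and 12337 to 12628 in wild type lungs, and their count was 2 without IKKa floxed replicate 1 or without wild type replicate 2, 1 with a pseudocount of 1 or with no filter and 8 or 9 with a pseudocount of 64 or the trended, robust variance prior described below. Genotype, the sex-linked pattern, the Gapdh ratio and the heart, fat, macrophage and, as given below, lymphocyte signals cannot be told apart in these 4 arrays, and their part in the values below was not tested.

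Of the 10 factors, 8 passed the level filter and none of the 8 passed the test (limma, Benjamini-Hochberg adjusted p over 12735 genes, threshold 0.05), where 1.73% of all genes tested did. At an unadjusted p under 0.05 there were 3 of the 8, Sox2, Foxj1 and Foxa1, all lower in floxed lungs, where 14.3% of all genes tested passed that limit and 7.13% did so as lower. The floxed and wild type arrays did not overlap for 4 tested members that were lower (Sox2, Foxj1, Foxa1 and Foxp2), against 22.2% of all genes tested, and for 1 that was higher (Foxa2). Groups without overlap made up 45.7% of all genes tested at either sign. The median log2 fold change of the 8 was -0.13, and that of all genes tested was 0.00 to the second decimal (1.67e-05). Sox9 and Hmga2 were below the filter and have values but no test.

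**Figure D1:**
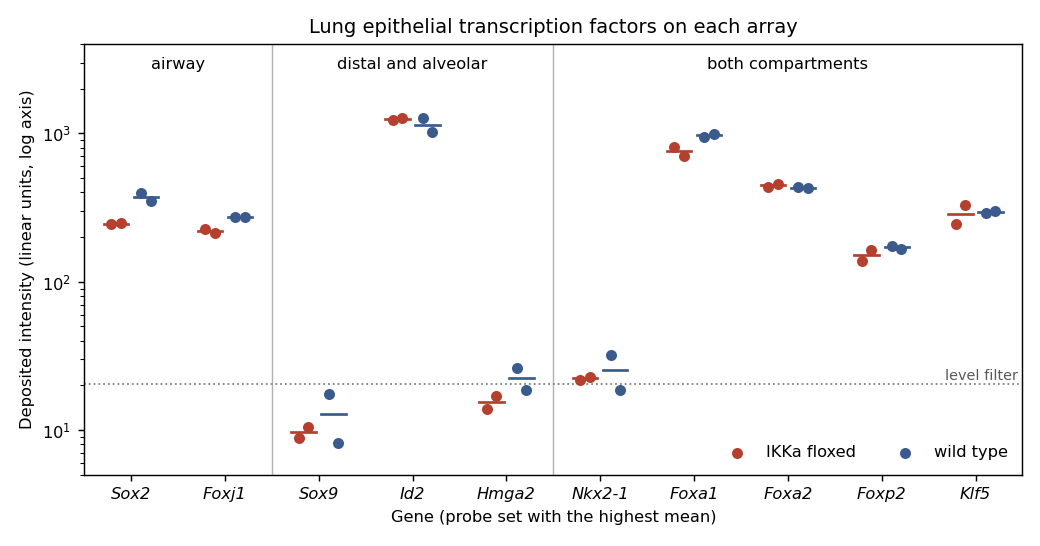
Deposited intensity (log axis) of each factor on the 2 IKKa floxed arrays (red, left) and the 2 wild type arrays (blue, right), with bars at the group means and the level filter of 20.4 as a dotted line. Sox2, Foxj1, Foxa1, Foxp2 and Hmga2 have both floxed arrays below both wild type arrays, and Foxa2 has both above. Sox9 and Hmga2 lie around or under the filter.

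Both airway factors were lower in floxed lungs without passing the test. Sox2 had intensities of 244 and 248 in floxed lungs and 396 and 352 in wild type lungs. Both floxed arrays lay below both wild type arrays, and the floxed arrays were nearly level with each other. The means were 246 ± 2.93 in floxed lungs and 374 ± 31.3 in wild type lungs (SD, n = 2 each), a log2 fold change of -0.57 ± 0.12 SE (limma adjusted p = 0.0923, 95% interval -0.87 to -0.28), or 1.49-fold higher in wild type. Sox2 ranked 367th of 12735 genes by p. Its value passed the threshold with a pseudocount of 64 (adjusted p = 0.0279) and with a variance prior that follows intensity and is robust to outliers (adjusted p = 0.0251), and over all 12 alternatives the adjusted p ran from 0.0251 to 0.393. The long RNA Sox2ot, whose transcription unit contains Sox2, was at 6.76 and 1.05 in floxed lungs and 8.44 and 1.25 in wild type lungs, below the filter on the level of single probe sets (intensity 12.3).

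Foxj1, which switches on the genes of the motile cilium, had 226 and 213 in floxed lungs and 275 and 272 in wild type lungs. The groups were separate, by less than for Sox2. The means were 220 ± 9.88 in floxed lungs and 273 ± 1.75 in wild type lungs (SD, n = 2 each), with a log2 fold change of -0.30 ± 0.12 SE (limma adjusted p = 0.323, 95% interval -0.58 to -0.02). No alternative brought Foxj1 past the threshold (adjusted p 0.253 to 0.753).

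Among the distal and alveolar factors only Id2 was bright enough to be tested. Id2, a helix-loop-helix protein that lacks a DNA-binding region and blocks the partners it binds, had 1221 and 1261 in floxed lungs and 1270 and 1014 in wild type lungs with its brightest probe set. The floxed values lay between the wild type values, so the groups overlapped. The log2 fold change was 0.13 ± 0.15 SE (limma adjusted p = 0.757, 95% interval -0.22 to 0.47). Its other probe sets gave 718 and 542 in floxed lungs against 515 and 567 in wild type lungs, and 52.6 and 50.1 in floxed lungs against 56.0 and 28.1 in wild type lungs. All 3 probe sets thus leaned the same way, by 0.13 to 0.26, with overlap in each. Id2 is also expressed by natural killer cells and other lymphocytes, whose part in the Id2 values was not tested. Lymphocyte markers had summed intensities of 1597 to 2246 in floxed lungs and 1192 to 1244 in wild type lungs. Of 13 tested, 3 lay below 0: the B cell genes Ms4a1 (-0.44, lower without overlap) and Cd79b (-0.12) and the natural killer cell gene Ncr1 (-0.09). Another 5 rose in floxed lungs (0.997% of all genes tested rose). They were led by the T cell gene Cd5 (log2 fold change 0.96) and the CD8 chain Cd8b1 (1.49). Cd5 and the lymphocyte marker Il2rb had wild type means of 19.6 and 15.4, under the filter of 20.4. Both passed it through their floxed arrays and are included in the count of 5. That count was 2 without IKKa floxed replicate 1 or without wild type replicate 2, 1 with a pseudocount of 1 and 0 with no filter.

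Sox9, a factor of distal tips and of cartilage, stayed between 1.07 and 17.5 on all arrays in its 3 probe sets. The brightest of them had 8.84 and 10.5 in floxed lungs and 17.5 and 8.22 in wild type lungs, and the 3 differences ran from -0.15 to 0.28 on the log2 scale, so no direction could be read at this signal. Of 17 cartilage markers on the array, 3 were bright enough to test and none passed, and the defining cartilage collagen Col2a1 was at 13.4 and 1.83 in floxed lungs and 1.58 and 3.36 in wild type lungs. Hmga2 lay between 1.70 and 26.2 in its 4 probe sets. Its brightest had 13.9 and 17.1 in floxed lungs and 26.2 and 18.5 in wild type lungs, a difference of -0.28 that is lower in floxed lungs without overlap. Its size moved with the wild type array left out and with the pseudocount: it was -0.14 without wild type replicate 1 and -0.43 without wild type replicate 2, and -0.49 with a pseudocount of 1 and -0.12 with one of 64. That probe set, 1 of the 16 that passed the filter when every probe set was tested, had an adjusted p of 0.591 (limma). All 4 Hmga2 probe sets lay below 0, from -0.40 to -0.09.

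Nkx2-1, which binds surfactant and secretoglobin promoters and is known as abundant in lung epithelium, had 1 probe set of low signal, with 21.8 and 22.9 in floxed lungs and 32.1 and 18.6 in wild type lungs. The wild type arrays lay on either side of the floxed ones. The log2 fold change was -0.09 ± 0.17 SE (limma adjusted p = 0.872, 95% interval -0.50 to 0.33), at a mean signal close to the filter of 20.4.

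Foxa1 and Foxa2 are pioneer factors with closely related DNA-binding domains that open chromatin in both airway and alveolar cells. Foxa1 had 808 and 705 in floxed lungs and 944 and 991 in wild type lungs. Both floxed arrays were below both wild type arrays, and the log2 fold change was -0.35 ± 0.13 SE (limma adjusted p = 0.283, 95% interval -0.66 to -0.05). Foxa2 had 434 and 458 in floxed lungs and 432 and 429 in wild type lungs. The floxed arrays were higher, by so little that the log2 fold change was 0.05 ± 0.12 SE (limma adjusted p = 0.902, 95% interval -0.23 to 0.33). The intervals of the pair overlap, and the difference between Foxa1 and Foxa2 was not tested.

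Foxp2, a forkhead repressor that acts with Foxp1 and Foxp4, had 6 probe sets that did not lean one way. The brightest gave 138 and 163 in floxed lungs and 174 and 167 in wild type lungs, a log2 fold change of -0.17 ± 0.13 SE (limma adjusted p = 0.623). The groups were separate there, with the second floxed array close to the wild type arrays. The largest difference was in a dimmer probe set, with 74.0 and 101 in floxed lungs and 126 and 112 in wild type lungs (-0.39 ± 0.18 SE, limma adjusted p = 0.492 over 31526 probe sets). Another gave 134.9 and 139 in floxed lungs and 125 and 139 in wild type lungs (0.05). Another dim one had 36.5 and 28.1 in floxed lungs and 19.5 and 30.3 in wild type lungs (0.25), and the next had 40.4 and 9.53 in floxed lungs and 29.0 and 28.9 in wild type lungs (-0.24), so that its floxed arrays lay on either side of level wild type arrays. The sixth was below the filter, at 8.54 to 14.6 over all arrays, and the range of the differences over all 6 was -0.39 to 0.25.

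Klf5 had 3 probe sets, with differences from -0.59 to 0.32. The 2 that were tested both lay below 0, and the one above 0 was below the filter. Its brightest probe set had 247 and 328 in floxed lungs and 291 and 299 in wild type lungs. The floxed arrays lay on either side of the wild type arrays, and the log2 fold change was -0.05 ± 0.16 SE (limma adjusted p = 0.927, 95% interval -0.42 to 0.33). A second, dimmer probe set had 65.0 and 55.2 in floxed lungs and 95.5 and 101 in wild type lungs. There both floxed arrays were below both wild type arrays, with a log2 fold change of -0.59 ± 0.15 SE, an unadjusted p of 0.00571 and an adjusted p of 0.237 (limma). The third was below the filter, at 9.39 and 11.1 in floxed lungs and 9.30 and 1.49 in wild type lungs. Which transcripts of Klf5 each probe set binds is not annotated in the tables used here.

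When each probe set was tested on its own, 16 of the 24 passed the filter and none passed the test, where 0.552% of 31526 probe sets did. At an unadjusted p under 0.05 there were 2, the Sox2 probe set and the second one of Klf5, both lower in floxed lungs, where 10.8% of all probe sets tested passed that limit and 6.45% did so as lower. Of the 16, 7 were lower without overlap, against 24% of all probe sets tested, with 42.5% separate at either sign.

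**Figure D2:**
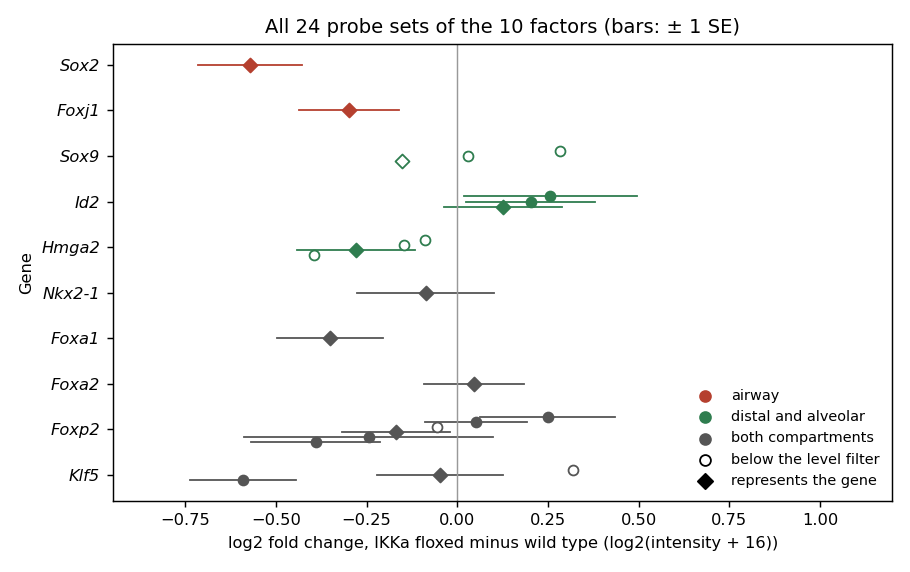
Log2 fold change (IKKa floxed minus wild type) of all 24 probe sets, by gene, with bars of ± 1 SE for the 16 that passed the filter, open symbols for the others and diamonds for the probe set that represents the gene. Sox2 and the second Klf5 probe set lie lowest, at -0.57 and -0.59. Tested Foxp2 probe sets fall on both sides of 0, while the only Klf5 probe set above 0 is below the filter.

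The airway and the distal classes were set side by side by the median log2 fold change of their members. It was -0.44 for Sox2 and Foxj1 and -0.15 for Sox9, Id2 and Hmga2, 2 of which are below the filter, and -0.09 for the factors of both compartments. The airway median minus the distal median was -0.28. On single arrays, with each gene centred on its mean, that difference was -0.08 and -0.20 in floxed lungs and -0.02 and 0.33 in wild type lungs. The groups were separate, but the first wild type array lay close to the floxed arrays, and without the second wild type array the difference was -0.09. With Nkx2-1, Foxp2 and Klf5 counted as distal and alveolar it was -0.32, and without Hmga2 it was -0.42. Since the members share the same 4 arrays and the distal side rests on dim probe sets, these values are a description with no test.

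Other transcription factors of the lung epithelium gave no calls. Of 5 tested airway factors none passed (median log2 fold change -0.03). They include Tfcp2l1 at 0.18, Rfx3, a partner of Foxj1 in cilium formation, at -0.32, Trp73, which is needed for ciliated cells, at -0.15, and Myb, which takes part in the differentiation of multiciliated cells, at -0.03. Rfx3 had 149 and 146 in floxed lungs and 250 and 142 in wild type lungs, so its difference came from 1 wild type array. The basal cell factor Trp63 was below the filter, with 25.6 and 15.7 in floxed lungs and 6.50 and 16.2 in wild type lungs. Of 11 tested distal and alveolar factors none passed (median -0.09), with Hopx, a type 1 cell factor, at 0.23, Cebpd at 0.22, Tbx2 at 0.22 and Etv5, a factor that maintains type 2 cells, at -0.32. Of 16 tested broad factors none passed (median -0.07), 13 of them lying below 0. Klf4, a relative of Klf5, was at -0.26, Elf3 at -0.25, Grhl1 at -0.24 and Cux1 at 0.26.

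The cells that carry these factors were read from marker lists. Ciliated cell genes lay mostly on the same side as Foxj1: 20 of 22 tested were below 0, with a median log2 fold change of -0.36, and 18 were lower without overlap (against 22.2% of all genes tested). None of the 22 passed the test, and 11 were lower at an unadjusted p under 0.05 (7.13% of all genes tested were). With each array left out, 18 to 21 lay below 0. Ccdc39, needed to assemble ciliary dynein arms, had 250 and 231 in floxed lungs and 336.1 and 336 in wild type lungs (-0.46 ± 0.12 SE, limma adjusted p = 0.145). Ccdc113 was at -0.48, Cdhr3 at -0.50 and Tekt1, a tektin of ciliary microtubules, at -0.48. The summed intensity of the list was 12280 to 13478 in floxed lungs and 13752 to 14130 in wild type lungs, and its brightest member, the tubulin Tuba1a, which many other cells express, was at 0.20.

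Club cell genes did not share that lean. Of 10 tested, 1 fell and 5 lay below 0, with a median of -0.03, though quantile normalization put 9 below 0 with a median of -0.16. The one called was Sult1d1, a sulfotransferase, with 305 and 241 in floxed lungs and 511 and 634 in wild type lungs (-1.03 ± 0.17 SE, limma adjusted p = 0.0387). It was not called in 5 of its 12 alternatives, among them a pseudocount of 1, no filter and the replicate block. Gabrp was at -0.56 and Scgb1a1 at 0.30, neither past the test. Genes of goblet and mucous cells on the array numbered 13, of which 7 were tested. All 7 fell, with a median of -2.64 (0.73% of all genes tested fell). Muc5ac, Agr2, Spdef and Clca1 were among those below the filter, at 1.96 to 19.9 over all arrays. Reg3g, Tff2 and Muc5b had floxed means of 3.23, 16.2 and 13.1, under the filter of 20.4. They passed it through their wild type arrays. With no filter the median was -1.08, and 12 of 13 lay below 0. Reg3g, a secreted antibacterial lectin, had 2.56 and 3.90 in floxed lungs and 184 and 251 in wild type lungs (-3.59 ± 0.16 SE, limma adjusted p = 0.000274). Scgb3a1, a secretoglobin of airway secretory cells, had 79.8 and 236 in floxed lungs and 3158 and 2906 in wild type lungs (-4.29 ± 0.40 SE, limma adjusted p = 0.00519). The groups were far apart for both genes. Bpifb1, a secreted airway protein, had a log2 fold change of -2.64, the trefoil peptide Tff2 one of -1.98 and the gel-forming mucin Muc5b one of -2.48. Bpifa1 had 15.0 and 195 in floxed lungs and 1878 and 2710 in wild type lungs (-4.81 ± 0.77 SE, limma adjusted p = 0.0373), so its floxed arrays differed widely. Ltf, the iron-binding lactoferrin, had the smallest difference of the 7, with 53.1 and 48.1 in floxed lungs and 152 and 102 in wild type lungs (-1.08 ± 0.18 SE, limma adjusted p = 0.0448), and it was not called in 6 of its 11 alternatives. Of the others, Reg3g was called in all 11 of its alternatives, Scgb3a1 and Bpifb1 in 11 of 12, Tff2 and Muc5b in 9 of 11 and Bpifa1 in 9 of 12. The list's count was 6 or 7 with each array left out, 2 with a pseudocount of 1 and 3 with no filter. It summed to 243 to 618 in floxed lungs and 5964 to 6576 in wild type lungs. The basal cell keratin Krt5 was below the filter, with 3.41 and 12.5 in floxed lungs and 30.3 and 7.42 in wild type lungs.

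Alveolar genes were centred near 0. Of 16 tested genes of type 2 cells none passed (median 0.07), with Sftpc at 0.44 ± 0.15 SE (limma adjusted p = 0.246), Lyz2 at 0.24 and Egfl6 at -0.47. The Sftpc value was 0.27 without IKKa floxed replicate 1, 0.20 with quantile normalization and 0.07 when its probe sets were averaged. Of 15 tested genes of type 1 cells none passed (median 0.06), with Ager at 0.23 and Cldn18, a tight junction protein, at 0.37. Pdpn, which is shared by type 1 cells, basal cells and lymphatic vessels, had 1075 and 1072 in floxed lungs and 1642 and 1859 in wild type lungs (-0.69 ± 0.13 SE, limma adjusted p = 0.0518). Its groups were separate, and it passed the threshold in 5 of 12 alternatives, with adjusted p from 0.00317 (trended, robust prior) to 0.0487 (quantile normalization) in those, and up to 0.261 in the others. Of 15 pan-epithelial genes none passed (median -0.05), with the adhesion molecule Epcam at -0.27 ± 0.12 SE (limma adjusted p = 0.396) and the cadherin Cdh1 at 0.00. Among genes of fibroblasts and smooth muscle, 3 of 16 fell: the proteoglycan Dcn by 1.40 on the log2 scale, Myh11 by 1.14 and Acta2 by 0.78. Of these, only Dcn kept its call with each array left out, and none kept it when probe sets of a gene were averaged (adjusted p 0.0527 to 0.404).

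**Figure D3:**
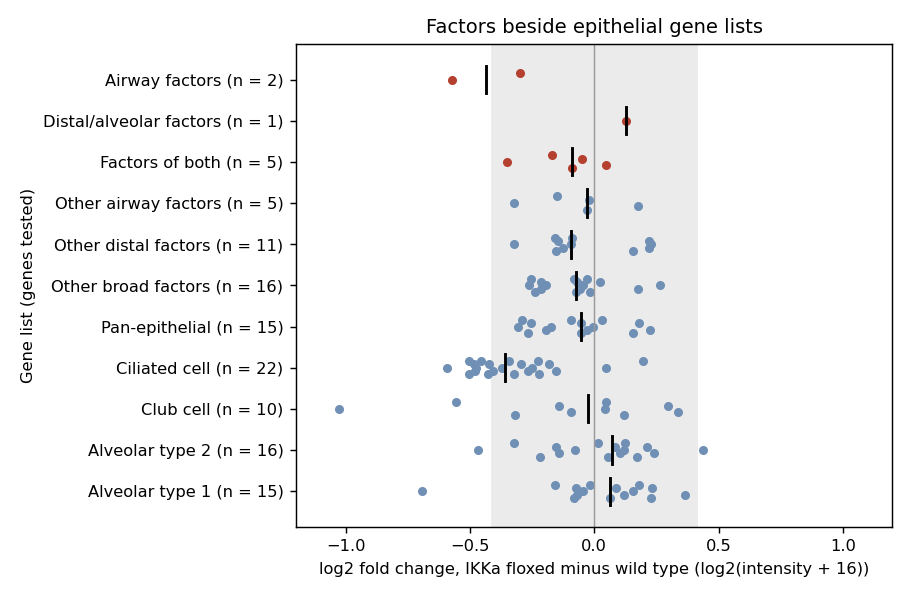
Log2 fold change (IKKa floxed minus wild type) of every tested gene in the factor classes (red) and in other epithelial lists (blue), with black bars at the list medians and a grey band from the 5th to the 95th percentile of all genes tested (-0.41 to 0.41). The ciliated cell list is centred at -0.36, next to the airway factors, while the alveolar lists are centred at 0.07 and 0.06.

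Profiles over the 4 arrays were compared with those of 186 tested genes from the lists by Euclidean distance between centred log2 values. The nearest to Sox2 were the ciliary dynein Dnah5 (0.16), the cardiac gene Mybpc3 (0.17) and Ccdc113 (0.18), where the median distance was 0.63. The nearest to Foxj1 were Elf3 (0.07), Epcam (0.08) and the cilium gene Rsph9 (0.14), with a median of 0.43. Foxa2 lay nearest to the type 2 cell genes Abca3 (0.04) and Sftpb (0.06) and to Esrp2 (0.07), all with differences between groups of at most 0.06 in size. Foxa1 lay nearest to the muscle gene Des (0.10) and the ciliated cell genes Ccdc39 (0.13) and Cdhr4 (0.13). With 4 arrays many genes share a profile, and these distances are a description.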

How the data were processed

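RNA of 4 lung samples was measured on 1 single-colour Affymetrix array each. The authors deposited linear intensities, not log transformed, made with Affymetrix Expression Console per the submitters' processing notes. Its version and summary algorithm are not known here. With 2% of values trimmed from each end, every array's mean was 150.001, so the deposited values had been scaled, which hides any difference in total signal. The labels name a choice of labelling kits without saying which sample had which.

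Of 45101 probe sets, 64 were controls, and by the platform annotation 34945 had 1 symbol, 932 several and 9160 none. Intensities were transformed as log2(intensity + 16). Array medians differed by at most 0.065 on the log2 scale, so the deposited scaling was kept. Groups came from the sample titles. The test was limma 3.58.1 under R 4.3.3 (lmFit and eBayes, two-sided, without covariates, 2 residual and 4.78 prior degrees of freedom), and the procedure was tested on simulated data. With 2 arrays a group, exact permutation of a single gene cannot go below p = 0.333 and was not used.

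Named genes were all members, fixed defining markers, genes of the lists in the order of moderated t (up to 4 a list and called genes up to 8, fewer for lists of other tissues), and the 3 nearest profiles per tested member, given for 4 members. Sox2ot, Tuba1a, Sox21 and the neuroendocrine genes below the filter were chosen after their values were seen. The members and lists were chosen with earlier results of these data known. The labels do not say whether the replicate numbers that the groups share pair the arrays, and the main fit left them unpaired. Deviations of same-numbered arrays correlated at r = -0.00033 across genes. Genes are not independent replicates, so that value cannot exclude pairing. Alternatives covered the pseudocount, filter, normalization, variance model, replicate block, choice of probe set and each array left out.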

Additional observations from a re-analysis of the deposited data

How the results depend on the processing

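Of 8 tested factors, Sox2 alone passed the threshold under any alternative: 1 gene and 1 probe set were called with a pseudocount of 64 (adjusted p = 0.0279) and 1 gene and 1 probe set with the variance prior following intensity (trend and robust; adjusted p = 0.0251). Under the other alternatives, each array left out included, 0 factors and 0 probe sets of factors were called. The count of all genes called was 220, and it was 103 with a pseudocount of 1, 360 with a pseudocount of 64, 69 with no filter on low values, 384 with the trended, robust prior, and 146 to 248 with each array left out, the lowest without wild type replicate 2. With the replicate number as a block 188 genes were called, and Sox2 had an adjusted p of 0.145. Sox2, Foxj1, Foxa1, Hmga2 and Foxp2 were below 0 in all 12 alternatives, and Foxa2 was above 0 in all 12, by 0.09 at most. The groups did not overlap for these genes, so leaving out an array or changing the pseudocount could not reverse their sign. The filter settings, the variance prior and the replicate block leave a fold change as it is. With each array left out, Id2 ran from -0.034 (without wild type replicate 2) to 0.29, Nkx2-1 from -0.33 to 0.15 (without wild type replicate 1) and Klf5 from -0.24 to 0.15 (without IKKa floxed replicate 1), and none of these 3 was called. The airway minus distal difference ran from -0.47 to -0.09 with each array left out, was -0.16 with a pseudocount of 1 and -0.49 when probe sets of a gene were averaged, and stayed below 0 in all 14 alternatives. The filter settings, the variance prior and the replicate block cannot change it. Its SD between the arrays of a group was up to 0.25, against a difference of -0.28. Sox9, Hmga2 and Nkx2-1 are limited by signal, at means of 9.67, 15.5 and 22.4 in floxed lungs and 12.9, 22.3 and 25.3 in wild type lungs. The cause of the changes with pseudocount and variance model was not tested.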

Other observations

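Sox21, a relative of Sox2 known from airway epithelium, was singled out after its values were seen. Its brighter probe set had 25.3 and 24.6 in floxed lungs and 53.1 and 52.3 in wild type lungs. The groups were separate and the arrays of each nearly level, with a log2 fold change of -0.75 (limma adjusted p = 0.109 over all probe sets tested). A second Sox21 probe set was below the filter, at 0.691 and 1.86 in floxed lungs and 3.55 and 2.70 in wild type lungs.

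Resp18, a secretory granule gene of the neuroendocrine list, was also singled out after its values were seen. It had 0.804 and 2.61 in floxed lungs and 25.8 and 27.5 in wild type lungs and was below the filter, so it was not tested. Of the other neuroendocrine genes, 3 were bright enough to test and none passed, with Ddc at 0.37, Syp at 0.19 and Uchl1 at -0.22. The other 6 on the array were below the filter. Of these, 3 were lower in floxed lungs without overlap, as Resp18 was. Among all genes tested, which lie above the filter, 22.2% were, and the share among genes below it is not given here. Chgb had 9.27 and 9.499 in floxed lungs and 21.9 and 12.9 in wild type lungs. Scg2 had 0.596 and 0.417 in floxed lungs and 5.16 and 6.54 in wild type lungs, and Insm1 had 9.07 and 4.31 in floxed lungs and 10.5 and 9.71 in wild type lungs. Chga alone was higher without overlap, with 8.09 and 11.1 in floxed lungs and 2.51 and 1.75 in wild type lungs, and Scg5 and Pcsk1 overlapped. Groups without overlap made up 45.7% of all genes tested at either sign, and no direction was read for these genes at such low signal.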
